A study of Danio rerio with 18 samples.

Results

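The genes described here are molecular chaperones of the cytosol and mitochondria, the cofactors that work with them, and the heat shock transcription factors that control many of them, as measured by RNA sequencing in single zebrafish larvae. They were chosen by gene symbol alone: the Hsp70, Hsp110 and Hsp90 families, the mitochondrial pair hspd1 and hspe1, J-proteins of classes A, B and C, the subunits of the CCT chaperonin, BAG cofactors and heat shock factors. Of 25281 rows in the expression table, 96 symbols matched. Rows numbered as further copies of a gene (10), genes with a mean below 10 reads per larva (hsf5, dnajc25 and hspa8) and the endoplasmic reticulum (ER) genes hspa5 and dnajc3b were left out, and the remaining 81 genes were all deep enough to be tested. The smallest means inside the minimum were 15 reads for dnajb13 and 17 for dnajb6b, and the largest outside it was 9 for dnajc25.

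The label of cytosolic and mitochondrial chaperones holds for most of these genes but not for all. By what is known of their products, 12 of the 81 were placed with the ER (among them dnajb11, dnajc10, dnajb9a, dnajb9b, dnajc1 and hspa13), and 2 (tcp11l1 and tcp11l2) match the chaperonin gene tcp1 only in the first letters of the symbol. Families were set by symbol, and some products of the other genes may also act outside the cytosol and mitochondria. The other genes fall into 6 Hsp70, 3 Hsp110, 3 Hsp90, 11 cytosolic J-protein genes of classes A and B, 18 J-protein genes of class C, 8 mitochondrial, 8 CCT, 7 BAG and 3 heat shock factor genes. The main hspa8 gene is not among them: its reads lie almost wholly (99.7% or more) in a row numbered as a copy.

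Hsp70 proteins bind exposed hydrophobic stretches of unfolded proteins in a cycle driven by ATP. J-proteins deliver clients and start ATP hydrolysis, and Hsp110 and BAG proteins release ADP so that the client can leave. Hsp90 finishes the folding of kinases and steroid receptors, the glucocorticoid receptor among them. The CCT ring folds actin and tubulin in the cytosol, and Hsp60 (hspd1) with its lid Hsp10 (hspe1) does the like for proteins imported into mitochondria. Heat shock factors bind DNA upstream of many of these genes when unfolded protein accumulates.

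Wild-type larvae of the AB strain were assigned to an archetype, resilient or susceptible, when 6 days old (days post fertilization, dpf) and were collected whole at 7 dpf, each larva making 1 library. They were taken either at basal conditions or 30 min after a 5 min stressful event, which the labels do not describe further. The labels put 4 larvae in resilient basal, 5 in resilient stressed, 4 in susceptible basal and 5 in susceptible stressed, so basal and stressed larvae are different animals, and a difference already there before the stress cannot be told apart from a response to it. No label gives clutch, sex or day. Libraries held 8452595 to 23801175 reads. Levels are CPM (read counts per 1000000 reads of a library, scaled by TMM factors), and differences are log2 fold changes with their standard error (SE). A gene is called where edgeR's quasi-likelihood test, adjusted by Benjamini-Hochberg over all 22038 genes tested, gives an adjusted p below 0.05.

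Several larvae stood apart. On the first principal component of all genes (17.3% of the variance) the resilient stressed larvae scored 16.6 to 57.0, with larvae 2 and 3 farthest out at 53.7 and 57.0, and all others scored -34.5 to 3.92, with resilient basal 3 and 1 (-34.5 and -32.2) and susceptible basal 2 (-31.0) at the other end. Some marker genes of several cell types were called between resilient basal and resilient stressed larvae, and others of the same lists were not. The summed level of 4 macrophage markers was 141 to 314 CPM in resilient basal and 60.7 to 115 CPM in resilient stressed larvae, with 2 of 4 called lower. The 14 cell proliferation markers tested summed to 625 to 1037 CPM and to 339 to 854 CPM in the same groups (2 called lower). The 6 liver markers summed to 5348 to 8312 CPM and 3576 to 6672 CPM (1 lower), with 4 negative and 2 positive log2 fold changes. The 4 neutrophil markers summed to 81.9 to 208 CPM and 51.8 to 109.8 CPM (1 lower). The 8 slow and cardiac muscle markers summed to 414 to 544 CPM and 382 to 449 CPM. Of these, 6 had negative and 2 positive log2 fold changes, and 1 was called, higher. No fast skeletal muscle, erythrocyte or neuron marker was called. No tested marker was at 0 in every larva. The part of these in the results below was not tested, and in whole larvae fewer cells of a type and less RNA per cell cannot be told apart.

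As a whole the chaperone genes made up a similar share of the reads in every larva. The 81 genes together took 0.945% to 1.07% of the reads of a larva, and the Hsp90 gene hsp90ab1 alone 52.9% to 56.2% of those reads. The CCT subunits took 0.218% to 0.258% of all reads. These are shares of reads, not corrected for transcript length. Within groups the 81 genes varied less between larvae than genes in general, with a median pooled SD of 0.169 on the log2 scale against 0.221 over all genes tested, which were not matched for level.

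**Figure D1:**
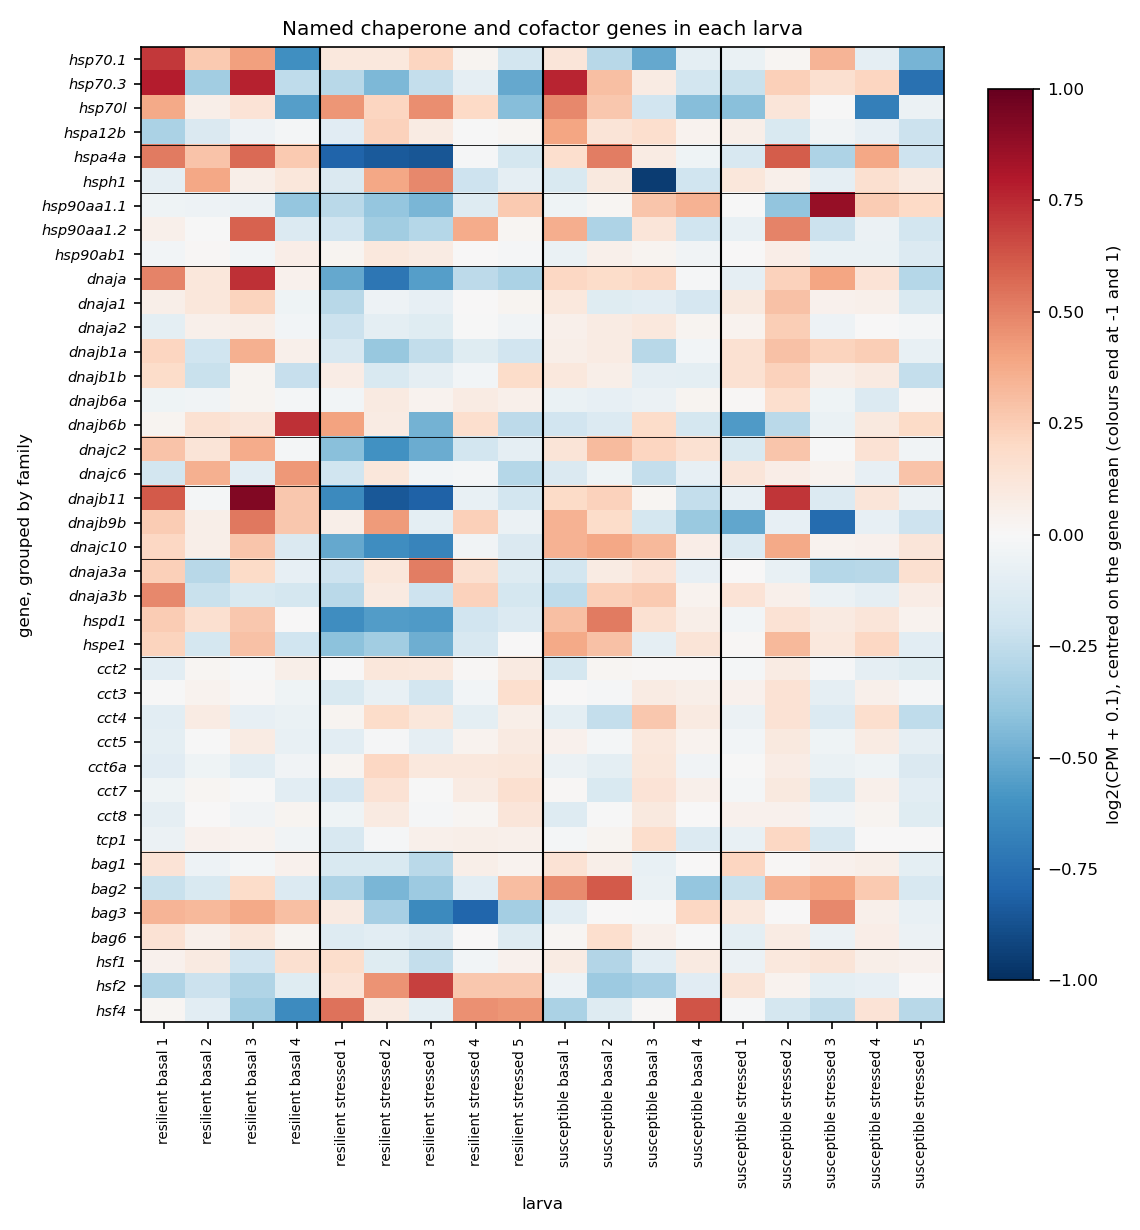
Level of the 40 named genes (rows, grouped by family) in each of the 18 larvae (columns, grouped by archetype and state), as log2(CPM + 0.1) minus the mean of the gene. Rows of hspa4a, dnaja, dnajb11, dnajc2, dnajc10 and hspd1 turn blue in resilient stressed larvae 1 to 3 and are paler in 4 and 5. In resilient stressed 4 the cells of hspa4a, dnajb11 and dnajc10 lie near the mean. The hsf2 row turns red in the resilient stressed larvae, and the rows of the CCT subunits and hsp90ab1 stay pale throughout.

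Stressed and basal larvae of the resilient archetype were compared first. Of the 81 genes, 8 were called: hsf2 was higher, and the Hsp110 gene hspa4a, the J-protein genes dnaja, dnajc2, dnajb11 and dnajc10, the mitochondrial chaperonin gene hspd1 and the BAG gene bag3 were lower. Over all genes tested, 6.35% were called, 2.76% higher and 3.59% lower. The 81 genes had 9.88% called, 1.23% higher and 8.64% lower. Their median log2 fold change was 0.00, as was that of all genes (0.00), with 42 of the 81 values positive and 39 negative. An unadjusted p below 0.05 was reached by 20 of the 81 (24.7%), against 21.6% of all genes. Groups did not overlap for 10 of the 81 genes (12.3%), against 8.46% of all genes.

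hsf2 encodes a heat shock factor that is active in development and, in mammals, can pair with HSF1. Its level was 32.3, 34.3, 32.2 and 36.5 CPM in the resilient basal larvae and 43.8, 54.3, 63.9, 48.0 and 48.0 CPM in the resilient stressed ones. Every stressed larva lay above every basal larva, with larvae 2 and 3 the highest. The log2 fold change was 0.61 (SE 0.10, adjusted p = 0.00334). hsf1, the factor that responds to unfolded protein, averaged 45.8 ± 4.62 CPM (SD) over the 4 basal larvae and 44.1 ± 4.88 CPM over the 5 stressed ones, with a log2 fold change of -0.06 (SE 0.09, adjusted p = 0.787). hsf4, best known from the lens, stood at 5.46 ± 1.06 and 8.06 ± 1.48 CPM and was not called (log2 fold change 0.56, SE 0.19, adjusted p = 0.0938).

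bag3 encodes a cochaperone that links Hsp70 to small heat shock proteins and to selective autophagy, and that muscle depends on. It stood at 29.2, 28.8, 30.0 and 28.4 CPM in the resilient basal larvae and at 24.5, 18.2, 14.7, 13.2 and 18.1 CPM in the stressed ones. The basal larvae lay within 2 CPM of each other and above all stressed larvae, of which larva 1 was the nearest, and the log2 fold change was -0.72 (SE 0.14, adjusted p = 0.00886). Of the other 6 BAG genes none was called. bag6, which encodes a protein that guards newly made membrane proteins, was at 91.8 ± 3.55 CPM (n = 4) and 80.7 ± 3.52 CPM (n = 5), groups that did not overlap (log2 fold change -0.19, SE 0.06, adjusted p = 0.0646), and bag1 had a log2 fold change of -0.12 (SE 0.08, adjusted p = 0.43).

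hspd1 encodes Hsp60, which folds proteins inside the mitochondrial matrix. Resilient basal larvae had 68.0, 63.6, 68.7 and 57.1 CPM and resilient stressed larvae 36.98, 38.7, 38.3, 49.8 and 51.8 CPM. The groups did not overlap, and stressed larvae 4 and 5 lay closest to the basal ones. This is a log2 fold change of -0.58 (SE 0.11, adjusted p = 0.00715). Its partner hspe1 went from 38.2 ± 6.77 to 30.6 ± 4.39 CPM, with overlapping groups, and was not called (log2 fold change -0.32, SE 0.13, adjusted p = 0.151). The other 6 mitochondrial genes were not called either. These include the J-protein genes dnaja3a (log2 fold change 0.09, SE 0.16), part of whose reads lies in a numbered copy (23.1% to 42.9% of the 2 rows), and dnajc19, which encodes a J-protein of the import motor (0.41, SE 0.19, adjusted p = 0.209).

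hspa4a encodes an Hsp110 protein, a nucleotide exchange factor for Hsp70. Its level was 54.0, 45.8, 55.7 and 45.2 CPM in the resilient basal larvae and 21.5, 21.0, 20.8, 37.3 and 33.3 CPM in the stressed ones. Stressed larvae 1 to 3 lay near 21 CPM and larvae 4 and 5 above them, all below the basal larvae, for a log2 fold change of -0.90 (SE 0.21, adjusted p = 0.0209). The other chosen Hsp110 genes, hspa4l and the heat-inducible hsph1, did not share this. hspa4l was at 0.01 (SE 0.15, adjusted p = 0.978) and hsph1 at -0.02 (SE 0.18, adjusted p = 0.973). hspa4b, also an Hsp110 gene, was left out because its row is numbered as a copy. It averaged 43.4 ± 2.74 CPM (SD, n = 4) in resilient basal and 39.6 ± 2.82 CPM (n = 5) in resilient stressed larvae. Its mean was thus lower after stress, as for hspa4a, but the groups overlapped (41.5 to 47.4 and 36.6 to 43.9 CPM). A test of hspa4b is not given here.

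Among the cytosolic J-proteins of classes A and B, dnaja was the single call of 11. Its level was 13.3, 10.2, 15.7 and 9.73 CPM in resilient basal and 6.58, 5.68, 6.41, 7.87 and 7.55 CPM in resilient stressed larvae. All stressed larvae lay below all basal ones, and basal larvae 1 and 3 were the highest. The log2 fold change was -0.84 (SE 0.16, adjusted p = 0.00693). dnajb1a and dnajb1b, counterparts of the human gene for Hsp40, the main J-protein of the heat shock response, were at -0.34 (SE 0.11, adjusted p = 0.0911) and 0.06 (SE 0.11, adjusted p = 0.827).

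dnajc2 was the single call of the 18 class C genes that are not counted with the ER or mitochondrial genes. In human and yeast its product sits on the ribosome and meets nascent chains. It stood at 13.99, 12.53, 14.9 and 11.3 CPM in resilient basal and 8.54, 7.49, 8.08, 10.1 and 10.8 CPM in resilient stressed larvae, without overlap (log2 fold change -0.55, SE 0.12, adjusted p = 0.0128). dnajc7, a cochaperone of Hsp70 and Hsp90 with the smallest spread between larvae of the 81 genes (pooled SD 0.059 on the log2 scale), was at 0.00 (SE 0.05, adjusted p = 0.976).

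Of the 12 ER genes 2 were called. dnajb11 encodes ERdj3, a J-protein of the ER Hsp70 BiP, and was at 53.7, 34.6, 66.9 and 42.3 CPM in resilient basal and 22.6, 19.5, 20.04, 33.3 and 30.9 CPM in resilient stressed larvae. Basal larva 2 lay just above stressed larva 4, and basal larvae 1 and 3 were the highest. The log2 fold change of -0.96 (SE 0.22, adjusted p = 0.0182) was the largest in size among the 81 genes in this comparison. dnajc10 encodes ERdj5, which reduces disulfide bonds, and averaged 21.1 ± 2.67 CPM (n = 4) and 15.1 ± 3.06 CPM (n = 5), with overlapping groups (log2 fold change -0.48, SE 0.14, adjusted p = 0.0427). dnajb9a, a gene of the unfolded protein response, was at -0.30 (SE 0.10, adjusted p = 0.0741).

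**Figure D2:**
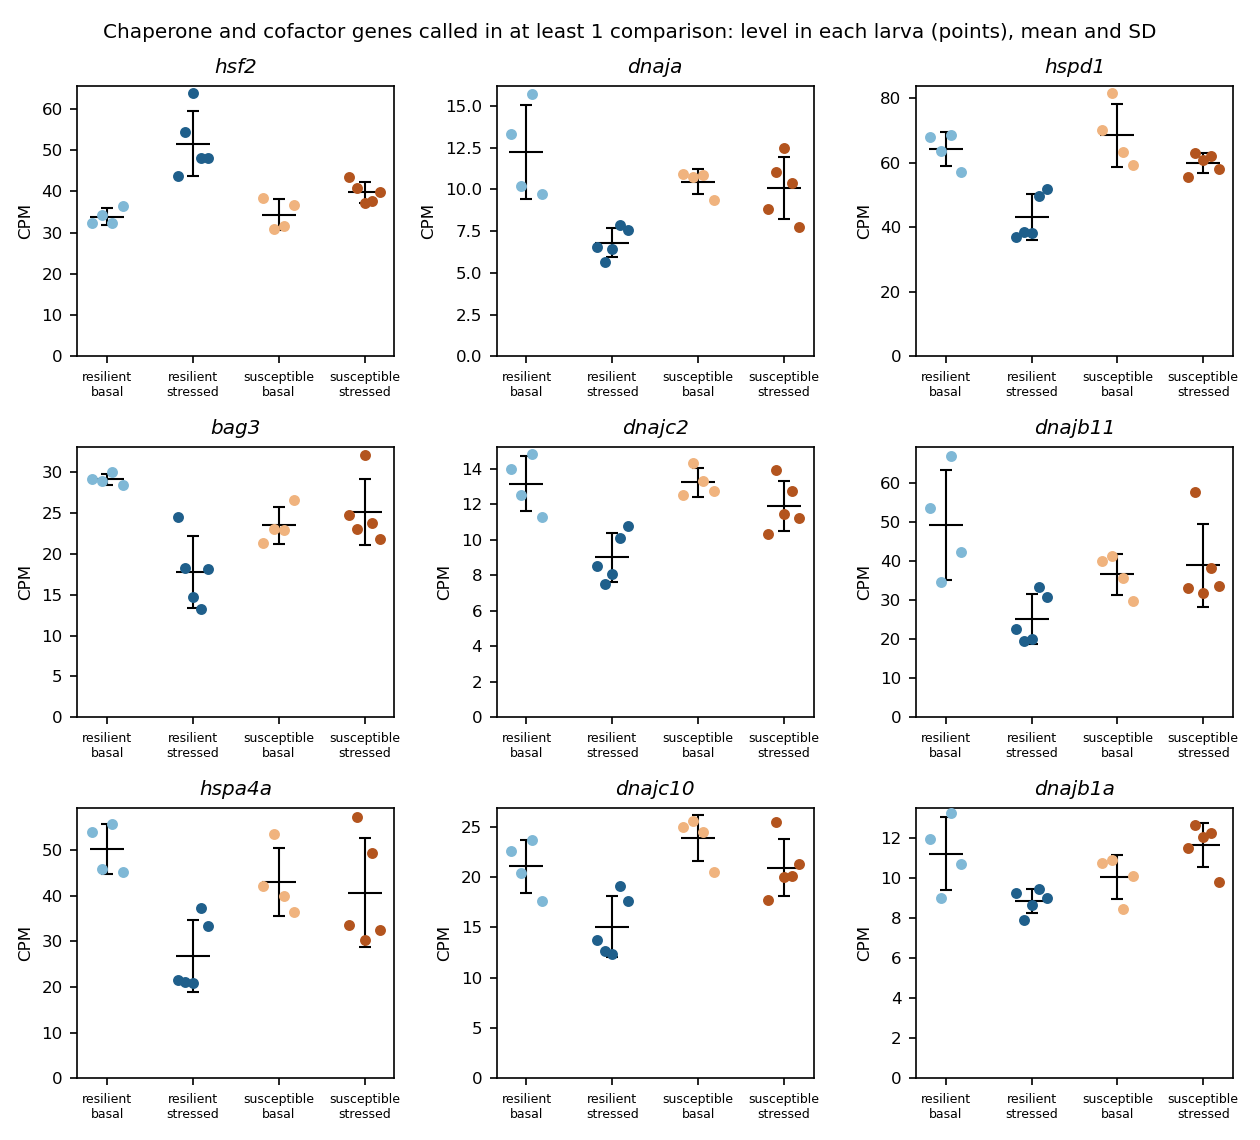
Level in CPM (vertical axes from 0) of the 9 genes called in at least 1 comparison, in each larva of the 4 groups (points), with the group mean (horizontal bar) and SD (whiskers). In 7 panels the resilient stressed larvae all lie below the resilient basal ones or nearly so, in the hsf2 panel they lie above (43.8 to 63.9 against 32.2 to 36.5 CPM), and the susceptible groups overlap in all 9.

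None of the 6 Hsp70 genes was called. hsp70l, the Hsp70 gene that heat induces most familiarly in zebrafish, was at 8.87, 7.07, 7.47 and 4.60 CPM in resilient basal and 9.24, 7.91, 9.41, 7.81 and 5.04 CPM in resilient stressed larvae. The groups overlapped over most of their range, and the log2 fold change was 0.18 (SE 0.23, 95% interval from -0.27 to 0.62, taken from the SE, adjusted p = 0.717). hsp70.1 and hsp70.3 were at -0.21 (SE 0.22, adjusted p = 0.636) and -0.65 (SE 0.28, adjusted p = 0.187). hsp70l, hsp70.1 and hsp70.3 are closely related genes whose reads the authors' counting may have divided wrongly, and all lay at low levels with wide intervals. The constitutive hsc70 was at 0.22 (SE 0.11, adjusted p = 0.247).

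Hsp90 genes were not called either. hsp90ab1, the constitutive form, ranged from 5302 to 5656 CPM in resilient basal and from 5349 to 5803 CPM in resilient stressed larvae. Resilient stressed 2 and 3 (5803 and 5726 CPM) lay above all basal larvae, and the other stressed larvae within the basal range. The log2 fold change of 0.03 had a 95% interval from -0.08 to 0.15 (adjusted p = 0.794). The closely related hsp90aa1.1, which serves myosin folding in muscle, and hsp90aa1.2 were at -0.05 (SE 0.20) and -0.21 (SE 0.19).

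The 8 CCT genes formed the most even group. Each encodes 1 of the different subunits of a single ring, and in resilient larvae their log2 fold changes lay between -0.05 and 0.19, with 7 of 8 positive and none called. Their summed level was 2294 ± 65.3 CPM (SD) over the basal larvae and 2413 ± 110.7 CPM over the stressed ones. Their pooled SD between larvae of a group had a median of 0.084 on the log2 scale, against 0.169 for all 81 genes, which were not matched for level. cct6a alone did not overlap between the groups, at 429 to 452 CPM in basal and 472 to 536 CPM in stressed larvae, and was not called (log2 fold change 0.19, SE 0.06, adjusted p = 0.0758). DESeq2 called cct6a (adjusted p = 0.0128) and bag6 (adjusted p = 0.0328) beside the 8 genes that edgeR called. Over the whole table it called 813 genes higher and 1073 lower, where edgeR called 608 and 791.

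The 7 genes called lower ordered the larvae of a group much alike. The order in the other genes called lower over the whole table was not counted. Resilient basal 3 was the highest basal larva in 7 of 7, with resilient basal 1 next in each. Among stressed larvae, larvae 4 and 5 were each among the highest 2 in 6 of 7. In the susceptible groups, basal larva 2 was the highest in 5 of 7 and stressed larva 2 in 5 of 7. These are the same resilient basal larvae that lay farthest out on the first principal component.

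The fits were repeated without these larvae, and without the resilient stressed larvae farthest out at the other end. Since such larvae set the groups apart, smaller fold changes without them follow in part from their choice, and fewer larvae are left. Without resilient basal 1 and 3, none of the 8 genes was called, and 38 genes were called over the whole table in place of 1399. The log2 fold changes kept their sign, at 0.55 (SE 0.13) for hsf2, -0.69 (SE 0.18) for bag3, -0.48 (SE 0.14) for hspd1 and -0.54 (SE 0.17) for dnaja, but dnajb11 moved to -0.59 (SE 0.24). Without resilient stressed 2 and 3, hsf2 alone was called (0.47, SE 0.09, adjusted p = 0.0318), among 69 genes over the whole table. With any single larva left out, hsf2, bag3, dnaja and hspd1 were called in all 18 fits. dnajc2 was lost without resilient basal 1 (adjusted p = 0.0509). dnajb11 and hspa4a were each called in 14 of 18 fits, lost without resilient basal 1, resilient basal 3, resilient stressed 2 or resilient stressed 3, with adjusted p up to 0.0695 and 0.0703. dnajc10 was called in 6 of 18 fits (adjusted p up to 0.138).

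**Figure D3:**
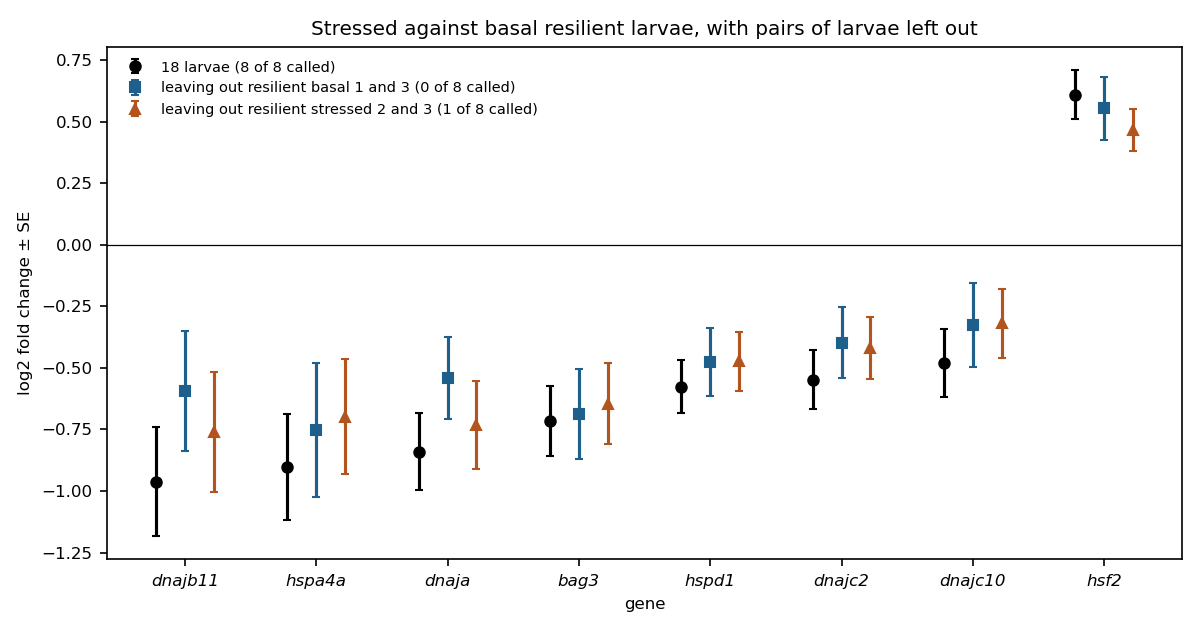
Log2 fold change with SE (vertical axis) of the 8 genes called between stressed and basal resilient larvae, in the fit of 18 larvae (circles), without resilient basal 1 and 3 (squares) and without resilient stressed 2 and 3 (triangles). All values keep their sign and draw closer to 0 (dnajb11 from -0.96 to -0.59), and the number called goes from 8 to 0 and 1. The larvae left out lay farthest out on the first principal component, so smaller values follow in part from their choice.

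The second comparison asked the same of susceptible larvae. None of the 81 genes was called by edgeR, with 0% of all genes called, and DESeq2 called none of the 81 either (46 genes over the whole table). An unadjusted p below 0.05 was reached by 2 of the 81 genes (2.47%, against 7.45% of all genes), and in no gene of the 81 were the groups separate, against 2.73% of all genes. hspa12b, a distant member of the Hsp70 family expressed in endothelium, had the smallest p. It was at 17.2, 14.2, 14.6 and 13.4 CPM in susceptible basal and 13.6, 11.7, 12.7, 12.3 and 11.2 CPM in susceptible stressed larvae, which overlap by the lowest basal and the highest stressed larva (log2 fold change -0.28, SE 0.10, adjusted p = 0.474). hsf2 came next, at 0.21 (SE 0.10, adjusted p = 0.655), then the ER gene dnajb9b at -0.34 (adjusted p = 0.726).

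Of the genes called in resilient larvae, hsf2 is given above and had the same sign here as there. The rest lay between -0.19 and 0.09. bag3 was at 21.3, 23.1, 22.9 and 26.6 CPM in susceptible basal and 24.7, 23.0, 32.1, 23.8 and 21.8 CPM in susceptible stressed larvae, with a log2 fold change of 0.09 (SE 0.14). The others were dnaja at -0.06 (SE 0.15), hspd1 at -0.19 (SE 0.11), dnajc2 at -0.15 (SE 0.12), dnajb11 at 0.09 (SE 0.22), hspa4a at -0.08 (SE 0.21) and dnajc10 at -0.19 (SE 0.13). hspa4a and dnajb11 were highest in susceptible stressed 2 (57.3 and 57.7 CPM), where the other 4 larvae had 30.4 to 49.3 and 32.0 to 38.2 CPM. The 8 CCT genes lay between -0.04 and 0.00 and hsp90ab1 at -0.03 (SE 0.06).

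**Figure D4:**
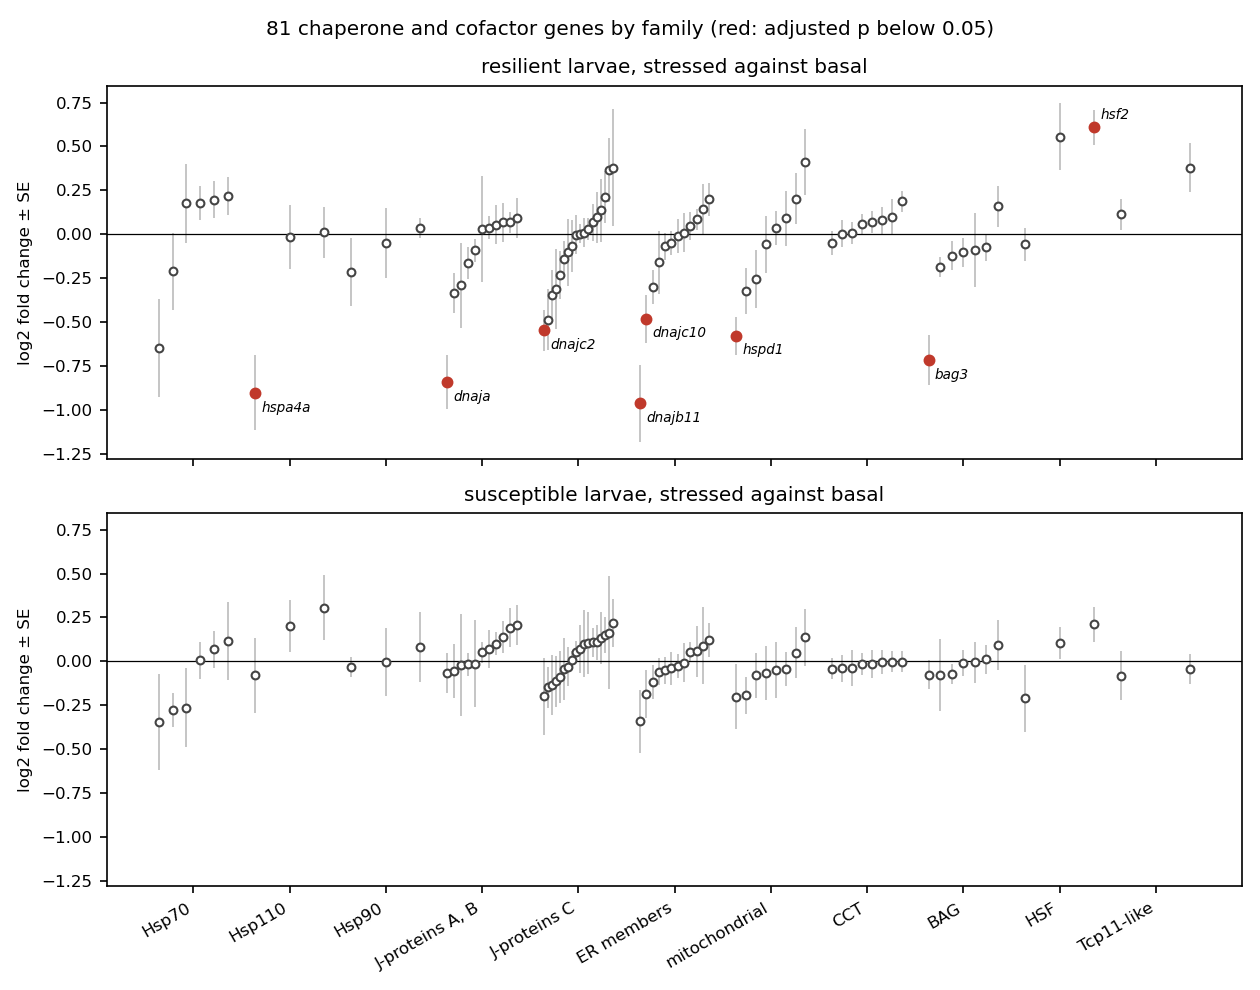
Log2 fold change with SE (vertical axes) of the 81 genes, ordered within families along the horizontal axis, for stressed against basal larvae of the resilient archetype (upper panel) and of the susceptible archetype (lower panel), with called genes in red. The upper panel has 8 red points between -0.96 and 0.61, the lower has none and runs from -0.34 to 0.31.

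Whether these responses differed between the archetypes was tested directly as the difference of the log2 fold changes. edgeR called none of the 81 genes, against 0.141% of all genes, and 15 of the 81 had an unadjusted p below 0.05 (13.1% of all genes did). bag3 was nearest, with a difference of 0.81 (SE 0.20, adjusted p = 0.0943), followed by dnaja at 0.78 (SE 0.22, adjusted p = 0.121) and by dnajb1a at 0.54 (SE 0.16) and hspa12b at -0.45 (SE 0.14), both with adjusted p = 0.154. DESeq2 called 2 of the 81 genes, bag3 (0.81, adjusted p = 0.0157) and dnajb11 (1.05, adjusted p = 0.0392). It also called far more genes over the whole table than edgeR, 178 with a positive and 218 with a negative difference. By edgeR a difference in response between archetypes is thus not shown for any of the genes called in resilient larvae, among them dnajb11 (1.05, SE 0.31, adjusted p = 0.155), hsf2 (-0.40, SE 0.14, adjusted p = 0.216) and hspd1 (0.38, SE 0.15, adjusted p = 0.286).

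The next comparison set susceptible against resilient larvae after the stress. It uses the same resilient stressed larvae as the first, so the values of both are given side by side and are no support for each other. Called were 6 of the 81 genes (7.41%, against 3.55% of all genes): hspd1, dnaja, bag3, dnajc10 and dnajb1a were higher in susceptible larvae (all genes 1.77%) and hsf2 was lower (all genes 1.77%). Groups were separate for 4 of the 81 (4.94%, against 4.98% of all genes), and 22 of the 81 had an unadjusted p below 0.05 (27.2%, against 19.9% of all genes). The 4 macrophage markers summed to 60.7 to 115 CPM in resilient and 129 to 236 CPM in susceptible stressed larvae, and the 14 proliferation markers to 339 to 854 CPM and 503 to 960 CPM, with 1 and 0 called, higher in susceptible larvae. The 6 liver markers summed to 3576 to 6672 CPM and 5424 to 7800 CPM, with 5 higher in susceptible larvae (1 called) and 1 lower. The 8 slow and cardiac muscle markers summed to 382 to 449 CPM and 414 to 488 CPM. Of these, 6 were higher in susceptible larvae, none of them called, and 2 were lower, 1 of them called. The part of these markers was not tested.

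hspd1 stood at 55.8, 63.1, 60.8, 62.0 and 58.3 CPM in susceptible stressed larvae, all above the 36.98 to 51.8 CPM of the resilient stressed ones. The log2 difference was 0.48 (SE 0.10, adjusted p = 0.0184). hsf2 was at 43.4, 40.7, 37.2, 37.6 and 39.9 CPM, all just below the 43.8 to 63.9 CPM of resilient larvae (-0.37, SE 0.09, adjusted p = 0.0311). In both genes the groups were separate, by less than 1 CPM for hsf2.

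dnajb1a had 9.24, 7.91, 8.66, 9.48 and 9.03 CPM in resilient stressed and 11.5, 12.6, 12.1, 12.3 and 9.81 CPM in susceptible stressed larvae. The groups were separate, with the lowest susceptible larva close to the highest resilient one, and the log2 difference of 0.39 (SE 0.11) lay at the threshold (adjusted p = 0.04998). dnaja was at 0.56 (SE 0.15, adjusted p = 0.0412), bag3 at 0.50 (SE 0.13, adjusted p = 0.0475) and dnajc10 at 0.47 (SE 0.13, adjusted p = 0.0478), all with overlapping groups. dnajc2 at 0.41 (SE 0.11, adjusted p = 0.0506), hspe1 at 0.39 (SE 0.12, adjusted p = 0.0794) and dnajb11 at 0.63 (SE 0.21, adjusted p = 0.101) were not called.

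Several of these calls lay near the threshold, and they changed with the larvae left out. Without resilient stressed 2, without resilient stressed 3 or without both, none of the 81 genes was called (16 genes over the whole table without both). Without both, hspd1 was at 0.38 (SE 0.11, adjusted p = 0.216) and hsf2 at -0.23 (SE 0.08, adjusted p = 0.298). Both larvae lay farthest out on the first principal component, so smaller values without them follow in part from their choice. With single larvae left out, hspd1 was called in 16 of 18 fits, hsf2 in 12, dnaja in 11, dnajb1a and dnajc10 in 4 each and bag3 in 2. Leaving out susceptible stressed 2, 3 or 4 also brought the count of called genes from 6 to 1. Several other single larvae brought it to 2 or 3: resilient basal 1, resilient stressed 1, susceptible stressed 5 and susceptible basal 1 to 4. Over the whole table, fits with a single larva left out called 197 to 1730 genes in place of 782. Basal larvae are not compared here, but they enter the same fit, which estimates the spread over all groups.

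The last comparison set susceptible against resilient larvae at basal conditions. edgeR called none of the 81 genes and 0% of all genes, DESeq2 called none of the 81 and 11 over the whole table, and 1 of the 81 had an unadjusted p below 0.05 (5.95% of all genes did). That gene was hspa12b, at 10.4, 11.7, 12.6 and 12.9 CPM in resilient and 17.2, 14.2, 14.6 and 13.4 CPM in susceptible basal larvae. All susceptible larvae lay above all resilient ones (log2 difference 0.32, SE 0.10, adjusted p = 0.747). bag3 was separate in the other direction, with 28.4 to 30.0 CPM in resilient and 21.3 to 26.6 CPM in susceptible basal larvae (-0.31, SE 0.15, adjusted p = 0.841). dnajc6, which encodes auxilin, the J-protein that strips clathrin coats, came next (-0.28, adjusted p = 0.847), with 15.0% to 51.7% of the reads of its 2 rows in a numbered copy. The 3 erythrocyte markers tested summed to 120.5 to 168 CPM in resilient and 208 to 456 CPM in susceptible basal larvae, with none called, and their part in these values was not tested. Groups were separate for 2 of the 81 genes (2.47%), against 3.29% of all genes.

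By group mean, bag3 was highest in resilient basal larvae (29.1 ± 0.657 CPM), then in susceptible stressed (25.1 ± 4.06 CPM) and susceptible basal larvae (23.5 ± 2.23 CPM), and lowest in resilient stressed larvae (17.8 ± 4.36 CPM). Neighbours in this order overlap: the susceptible stressed range (21.8 to 32.1 CPM) encloses that of resilient basal larvae (28.4 to 30.0 CPM), and resilient stressed 1 (24.5 CPM) lay within both susceptible ranges. hsf2 was highest in resilient stressed larvae (51.6 ± 7.82 CPM), above all larvae of the other groups. The means of the others were 39.8 ± 2.51 CPM in susceptible stressed, 34.3 ± 3.73 CPM in susceptible basal and 33.8 ± 2.01 CPM in resilient basal larvae. Of these, susceptible stressed (37.2 to 43.4 CPM) overlapped susceptible basal larvae (30.8 to 38.3 CPM), which overlapped resilient basal ones (32.2 to 36.5 CPM).

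Partners of these chaperones outside the chosen symbols were read from a list of 43 genes, of which 36 were tested. The list was chosen with earlier results of these data known, so its shares are no test of partners as a set. In resilient larvae 6 of the 36 were called (16.7%, against 6.35% of all genes), 5 lower (3.59% of all genes) and 1 higher (2.76%). Lower were hspb1, a small heat shock protein gene that works with bag3 (-1.50, SE 0.20), the Hsp90 cochaperone genes cdc37 (-0.38, SE 0.08), ptges3b (-0.51, SE 0.14) and unc45b, which folds myosin (-0.56, SE 0.15), and tomm34, which passes precursors to mitochondria (-0.69, SE 0.15). grpel2, a nucleotide exchange factor of mitochondrial Hsp70, was higher (0.30, SE 0.08). After the stress, 5 (13.9%, against 3.55% of all genes) were called, all higher in susceptible larvae (1.77% of all genes): hspb1, unc45b, tomm34, cdc37 and chordc1b. In susceptible larvae and at basal conditions edgeR called none. hspb1 was the single partner whose response was called different between the archetypes (1.49, SE 0.28, adjusted p = 0.0459).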

How the data were processed

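Single whole larvae were sequenced as total RNA, 18 in 4 groups taken from the sample titles. The submitters' processing notes name cutadapt, STAR, DESeq2 and the build danRer11. The sources used here do not give the counting tool, its annotation or its strand setting. The table that the authors deposited holds raw counts per gene, used for every test, and log2 fold changes with adjusted p-values of their own 4 comparisons. In the authors' deposited table, 10 of the 81 genes passed 0.05 in resilient larvae (2 higher, 8 lower), 8 after stress, and none in the other 2 comparisons. The genes passing over that whole table were not counted, so no share over all genes stands beside these counts. The 15 rows without a gene name (0.0613% to 0.0698% of reads) were left out.

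edgeR 4.0.16 (R 4.3.3) fitted 4 group means over 18 larvae (TMM factors, filterByExpr, robust quasi-likelihood), with 5 contrasts and Benjamini-Hochberg adjustment over 22038 genes. Standard errors were taken as the size of the log2 fold change divided by the root of its F statistic. The fit was also run on simulated counts with known changes in the resilient stressed larvae. Noise was drawn separately for each gene and larva, so variation shared across genes was not covered. DESeq2 1.42.0, other scalings, filters and left-out larvae were alternatives. The genes, lists and alternatives were chosen with earlier results of these data known. Named are all called genes, a panel across families, the 3 smallest p where none was called, and up to 6 called partners per comparison. The 32 library pairs within groups all differed beyond sampling noise (lowest chi-square per degree of freedom 6.50). The p-values set group differences against the spread between these larvae. No label says that larvae came from separate clutches, so the p-values cannot be extended to other clutches. Total reads differed up to 2.82 times between larvae. Symbols are as deposited.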

Additional observations from a re-analysis of the deposited data

Results flagged for a closer look

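Among 160 sets of larvae (40 named genes in 4 groups), 11 had a larva far from the rest of its group, with a gap to its neighbour that, as a part of the group's range, passed Dixon's 95% critical value. Chance gives about 1 in 20. Susceptible stressed 2 was the highest of its group for dnajb11 (57.7 CPM, others 32.0 to 38.2), hsp90aa1.2 (90.6 CPM, others 55.2 to 61.5) and dnaja2 (201 CPM, others 163 to 174). Susceptible stressed 3 was the highest for bag3 (32.1 CPM, others 21.8 to 24.7). Susceptible basal 1 was the lowest for cct2 (191 CPM, others 218 to 219), susceptible basal 4 the lowest for dnaja (9.36 CPM, others 10.7 to 10.9) and susceptible basal 3 the highest for dnajb6b (1.33 CPM, others 1.01 to 1.05). In resilient larvae, basal 1 was the highest for dnaja3b (7.04 CPM, others 4.28 to 4.50), basal 4 the highest for dnajb6b (1.998 CPM, others 1.19 to 1.30) and the lowest for hsp90aa1.1 (30.1 CPM, others 37.6 to 38.1), and stressed 4 the highest for bag6 (86.8 CPM, others 78.1 to 80.5).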

How the results depend on the processing

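No value of a named gene that was called, in the main fit or in the alternative, changed sign under any alternative. Some values that were not called did change sign. No scaling moved the median of all genes by over 0.1. After stress, dnajb1a and dnajc10 were no longer called with RLE in place of TMM factors, and dnajc2 was called with upper-quartile factors. dnajb1a was also lost without the filter on low counts, and dnajc2 was also called with a filter at 1 CPM. The stress response of susceptible larvae and the basal comparison had 0 of the 81 genes called throughout. In resilient larvae the count of 8 became 10 with DESeq2 (1886 over all genes), 5 with the compared groups alone, 0 without resilient basal 1 and 3, 1 without resilient stressed 2 and 3, and 4 to 9 with single larvae left out (over all genes, 1399 became 640, 38, 69 and 398 to 1918). After stress the count of 6 became 11 with DESeq2, 1 with the compared groups alone, 1 with a fold minimum of 0.5 on the log2 scale, 2 without susceptible basal 1 and 2, 0 without resilient stressed 2 and 3, and 0 to 8 with single larvae left out (over all genes, 782 became 1543 with DESeq2 and 197 to 1730 with single larvae left out). For the compared groups alone, the fold minimum and susceptible basal 1 and 2 left out, counts over all genes are not given here. The falls under these settings thus cannot be set against the whole table. The difference of responses had 2 with DESeq2 and 0 to 1 with single larvae left out (over all genes, 31 became 396 and 5 to 132). The cause of these changes was not tested, and fits with larvae left out also hold fewer larvae. Titles carry a replicate number and a number in brackets. Deviations of same-numbered larvae correlated over 0.1 in 2 of 25 pairs by title number and 4 of 19 by bracket number. The highest correlations were 0.136 and 0.195. Differently numbered larvae were not set beside them, so the check cannot decide whether either number marks a pairing. With a replicate block by title number, resilient larvae had 6 of the 81 genes called (863 over all genes) and the comparison after stress 1 (503). With a block by bracket number these were 5 (427) and 4 (487). At low depth, as for hsp70.1 and hsp70.3 (group means of 1.92 to 3.61 CPM), counting error adds to the spread between larvae.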

Other observations

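Further Hsp70 genes lay in numbered rows outside the chosen symbols. The hspa8 copy, for constitutive cytosolic Hsp70, averaged 207 ± 4.14 CPM (SD, n = 4) in resilient basal, 200.2 ± 7.41 CPM (n = 5) in resilient stressed, 212 ± 16.2 CPM (n = 4) in susceptible basal and 206 ± 16.2 CPM (n = 5) in susceptible stressed larvae. Its log2 fold change with stress was -0.05 (SE 0.07, edgeR adjusted p = 0.747) in resilient and -0.04 (SE 0.07, adjusted p = 0.95) in susceptible larvae. The hspa9 copy, for mitochondrial Hsp70, was at 36.9 ± 6.38, 32.6 ± 3.73, 37.2 ± 3.47 and 35.2 ± 2.52 CPM in the same order, with log2 fold changes of -0.18 (SE 0.11, adjusted p = 0.354) and -0.08 (SE 0.11, adjusted p = 0.936). Neither was called in any comparison.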
